A study of Xenopus tropicalis with 6 samples.

Results

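Neurons release transmitter by fusing vesicles with the presynaptic membrane, and the 90 genes described here encode the proteins of that step and their close relatives. A SNARE complex of syntaxin and Snap25 on the plasma membrane and Vamp on the vesicle drives fusion. Unc13 proteins prepare the complex, synaptotagmin triggers it when calcium enters, complexin holds and assists it, and Nsf with its SNAP adaptors takes it apart for reuse. Rab3, Rim, Bassoon, Piccolo and Erc proteins place vesicles at the active zone, the patch of membrane where they fuse.

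Members were chosen by gene symbol from the deposited table of normalized expression. They were the symbols of the synaptotagmin, syntaxin, Vamp, SV2, complexin, Rab3, Rim, Unc13, syntaxin-binding protein, synapsin, synaptogyrin, SNAP and Doc2 families, together with *nsf*, *napa*, *napb*, *syp*, *synpr*, *bsn*, *pclo*, *erc1* and *erc2*. The rule found 90 of the 12512 lines with a symbol, on a table of 15079 lines. It matches letters and not function. It therefore also took in 10 Rab genes numbered in the thirties, *rab35l*, and *snap91*, which encodes the clathrin adaptor AP180 and no SNARE. That table holds genes with more than 1 cpm, that is, counts per 1000000 counts of the library, in at least 3 libraries, so all 90 members had passed this filter, and family members below it were not analysed here.

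The 6 libraries came from dissected brains of stage 46 *Xenopus tropicalis* tadpoles, with 3 brains pooled in each. In the 3 *dyrk1a* CRISPR libraries, both blastomeres had received CRISPR reagents, a guide RNA with Cas9, against *dyrk1a*, which encodes a protein kinase, at the 2-cell stage. The 3 control libraries came from uninjected tadpoles of the same stage, so injection and Cas9 were not themselves controlled for. Mutation by injected Cas9 is mosaic, and by the methods of the study the CRISPR brains were the most mutagenized ones by genotyping. By the methods of the study, animals were wild type and of both sexes, and the control titles read WT. Its injection methods also name co-injected fluorescent dextrans as a label, without saying whether the animals of these libraries received them. No other allele is given for either group. No animal was in more than 1 pool, and every p-value rests on the spread among pools.

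Gene counts summed to between 9603583 and 35071943 per library, lowest in control replicate 3. Transcripts of *dyrk1a* had a log2 fold change of -0.07 (adjusted p = 0.936 by edgeR), and small insertions and deletions need not alter a count. For these libraries the paper reports fewer reads around the guide target site in every injected replicate and not in the controls. On the first principal component, which held 34.8% of the variance, the extremes were CRISPR replicate 3 at 42.7 and control replicate 2 at -31.04. CRISPR replicate 3 and control replicate 1 had the largest r of any pair between the groups for deviations from their group means. It was 0.298 across genes, which are not independent replicates. Log2 fold changes and counts of members by p were therefore also fitted without these libraries. Summed levels and the overlap of groups below rest on all 6 libraries only. Of 19 neuron markers 17 were tested, and they summed to between 7286 and 8407 cpm per library. Genes of the muscle list were also present, at 107 to 137 cpm in CRISPR libraries and 152 to 297 cpm in control libraries, highest in control replicate 2. Of its 11 tested genes, 7 (63.6%) were lower at an unadjusted edgeR p under 0.05, beside 6.14% of all tested genes. The median log2 fold change over all 11 was -1.71. DESeq2 called 6 of the 11 lower at an adjusted p under 0.05, beside 0.809% of all tested genes. Most of the CRISPR sum was *tpm1*, which went the other way with a log2 fold change of 0.23. It gave 96.5, 80.2 and 96.6 cpm in CRISPR replicates 1, 2 and 3 and 80.8, 75.7 and 75.7 cpm in control replicates 1, 2 and 3.

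The release machinery took a smaller part of the transcriptome in *dyrk1a* CRISPR brains. Its 90 genes held 1.97%, 1.99% and 1.94% of all gene counts in CRISPR replicates 1, 2 and 3, and 2.24%, 2.27% and 2.24% in control replicates 1, 2 and 3. On library sizes scaled by TMM, the trimmed mean normalization of edgeR, the sums averaged 19519.7 ± 167 cpm over the 3 CRISPR pools and 22774.5 ± 153 cpm over the 3 control pools (± SD), 14.3% lower in the former. The groups did not overlap, and the gap was far wider than the spread within either group. The two-sided exact permutation p was 0.1, the smallest that 3 against 3 libraries can give. All tested genes at 100 cpm or more summed to 670452 to 702807 cpm in CRISPR and 690786 to 715533 cpm in control libraries, with overlap. *snap25* alone gave 15.3% of the summed cpm of the members, and without it their sum was 13.1% lower. In bulk RNA, fewer neurons and less of these transcripts per neuron cannot be told apart.

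No single member passed the test over all genes. With edgeR, 0 of 90 members were called lower and 0 higher at an adjusted p under 0.05, where 0.00663% of the 15076 tested genes were called lower and 0.0% higher. At an unadjusted p under 0.05, 16 members were lower and 0 were higher. That is 17.8% of the members, beside 6.14% of all tested genes lower and 6.79% higher. DESeq2 also called 0 members at an adjusted p under 0.05 in either direction, where it called 0.809% of all genes lower and 1.15% higher. At an unadjusted p under 0.05 it put 12 members lower and 0 higher, beside 5.87% and 7.1% of all genes. Of the 90 members 58 had a negative log2 fold change, beside 48.1% of all tested genes, and the median was -0.07, beside 0.01 over all tested genes. The number lower at an unadjusted p was 9 without CRISPR replicate 1 and 7 without control replicate 3. In these fits 5.35% and 3.83% of all tested genes were lower. It was 16, with 3 higher, when CRISPR replicate 3 and control replicate 1 were both left out, beside 5.86% and 8.04% of all tested genes.

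**Figure D1:**
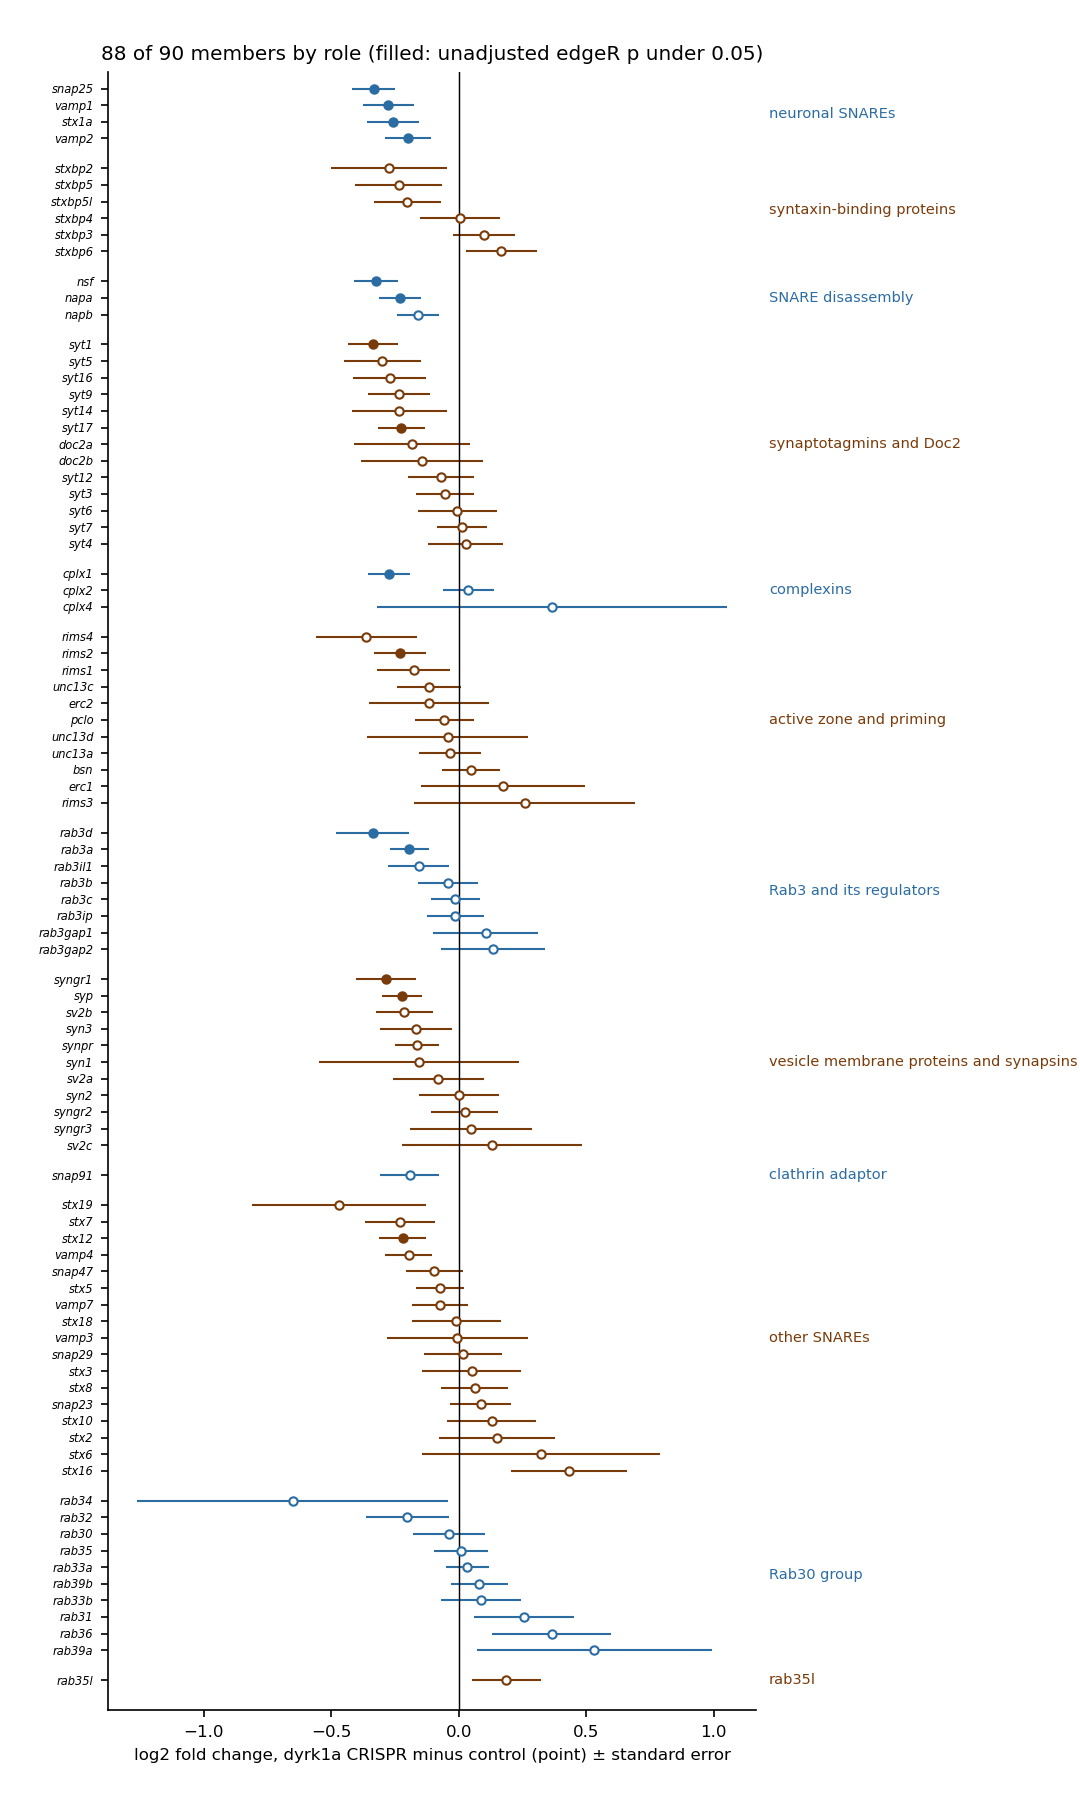
Log2 fold change (x axis, *dyrk1a* CRISPR minus control, edgeR) of 88 of the 90 members with its standard error, grouped by role and sorted within each role. Filled points mark the 15 of these members with an unadjusted p under 0.05, which all lie left of 0, and 4 of them are neuronal SNAREs.

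The neuronal SNAREs *snap25*, *vamp1*, *vamp2* and *stx1a* were each lower at an unadjusted p under 0.05. *snap25* (gene5036), the plasma membrane SNARE of synapses, gave 2991, 2648 and 2946 cpm across the CRISPR pools and 3912, 3353 and 3559 cpm across the control pools, in the order of replicates 1, 2 and 3, as for all genes below. Every CRISPR library lay below every control library. Its log2 fold change was -0.33 (SE, its standard error, 0.08), 20.7% lower, with an unadjusted p of 0.00247 and an adjusted p of 0.154 from edgeR. The lower level ran along the whole transcript: all 9 exon bins of *snap25* were lower in each CRISPR library than in each control library. These bins share the level of a gene that already separated the groups, so their count is no added support.

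Both synaptobrevins, the SNAREs carried by the vesicle, lay on the same side. *vamp1* (gene16883) gave 137, 124 and 149 cpm across the CRISPR pools and 163, 159 and 174 cpm across the control pools. Its groups did not overlap, and its log2 fold change was -0.28 (SE 0.10, adjusted p = 0.305 by edgeR). *vamp2* (gene25950) gave 1058, 1061 and 1248 cpm across the CRISPR pools and 1232, 1293 and 1341 cpm across the control pools. CRISPR replicate 3 overlapped the control range here, and the log2 fold change was -0.20 (SE 0.09, adjusted p = 0.383 by edgeR).

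Syntaxins are the partners of Snap25 on the plasma membrane. *stx1a* (gene30310) gave 186, 187 and 180 cpm across the CRISPR pools and 197, 247 and 218 cpm across the control pools, with a log2 fold change of -0.26 (SE 0.10, adjusted p = 0.34 by edgeR). Its groups did not overlap, and CRISPR libraries lay within a narrow range.

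**Figure D2:**
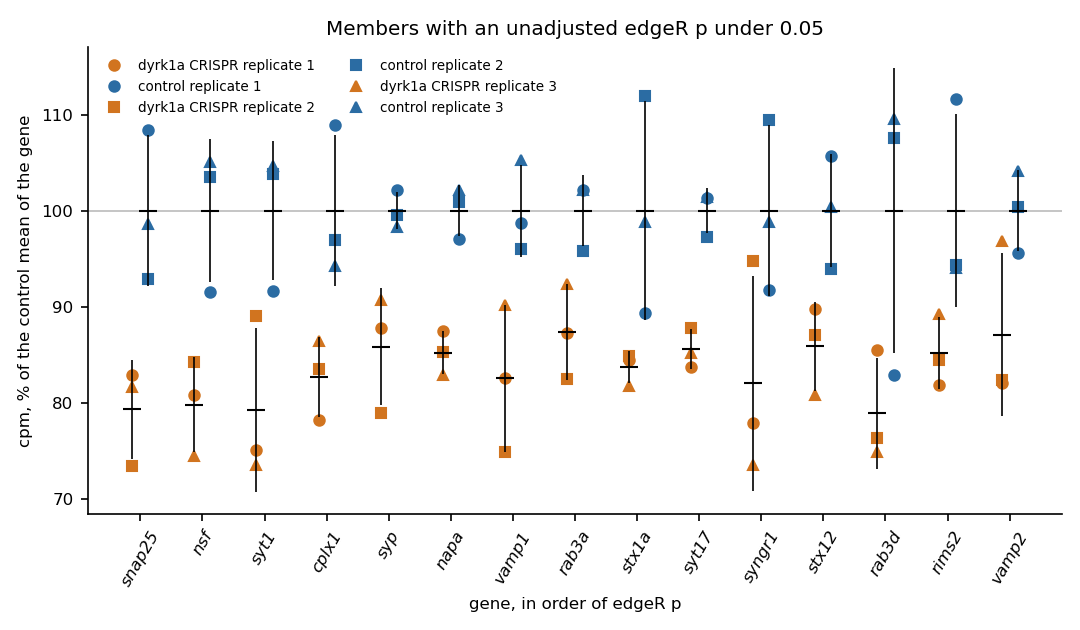
Level of 15 of the 16 members with an unadjusted edgeR p under 0.05 in each library, as a percentage of the control mean of that gene (y axis), in order of p from left to right. Orange symbols are *dyrk1a* CRISPR and blue symbols control libraries, with the mean and SD of 3 libraries as a dash and bar. All CRISPR symbols lie below the line at 100%, and the groups overlap in *syngr1*, *rab3d* and *vamp2*. The genes were picked by p in these same libraries, so this separation is no added support.

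The genes for the proteins that recycle SNAREs lay lower together. *nsf* (gene4264), the ATPase that pulls spent SNARE complexes apart, gave 1270, 1325 and 1171 cpm across the CRISPR pools and 1439, 1628 and 1653 cpm across the control pools. It too separated the groups, with a log2 fold change of -0.33 (SE 0.09, adjusted p = 0.172 by edgeR, 0.112 by DESeq2). Of its 24 exon bins with at least 30 counts, 20 were lower in every CRISPR library than in every control library. Such bins numbered 5 of 5 in *vamp1*, 8 of 13 in *syt1* and 0 of 3 in *vamp2*. Bins of a gene share its level and are not independent, and the share over all bins was not counted. The adaptor genes *napa* and *napb* followed: *napa* (gene8460) was at 270, 263 and 256 cpm against 300, 312 and 315 cpm, and *napb* (gene5667) at 715, 809 and 806 cpm against 836, 892 and 872 cpm. Their log2 fold changes were -0.23 (adjusted p = 0.294) and -0.16 (adjusted p = 0.449 by edgeR). All 3 disassembly genes separated the groups with CRISPR lower. The share that did so was 9.72% of all tested genes and 18.8% of those at 100 cpm or more, the level of these 3.

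Genes of syntaxin-binding proteins lay on both sides of 0. Tomosyn, which competes for SNAREs and restrains fusion, is encoded by *stxbp5* and *stxbp5l*, and these had log2 fold changes of -0.24 and -0.20 (adjusted p = 0.593 and 0.542 by edgeR). *stxbp2* and *stxbp3*, whose proteins serve exocytosis in cells other than neurons, were at -0.27 and 0.10 (adjusted p = 0.644 and 0.777). *stxbp6*, the gene of the SNARE-binding protein amisyn, gave 21.5, 21.2 and 23.8 cpm across the CRISPR pools and 20.6, 19.9 and 18.5 cpm across the control pools. It was one of 3 members, with *stx16* and *rab36*, whose CRISPR range lay wholly above the control range, beside 9.13% of all tested genes. Its log2 fold change was 0.17 (adjusted p = 0.639 by edgeR).

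Of the synaptotagmin and Doc2 genes, *syt1* had the smallest p. Some proteins of this family are calcium sensors and others do not bind calcium. Synaptotagmin 1 (gene26423) triggers fast, synchronous release in the mammalian forebrain. Its transcripts gave 683, 810 and 669 cpm across the CRISPR pools and 834, 944 and 952 cpm across the control pools. The groups did not overlap but came close, at CRISPR replicate 2 and control replicate 1. The log2 fold change was -0.34 (SE 0.10), 20.8% lower, and the adjusted p was 0.22 by edgeR against 0.148 by DESeq2. *syt17* (gene2871) was at 92.6, 97.2 and 94.4 cpm against 112, 108 and 112 cpm, with a log2 fold change of -0.22 (SE 0.09, adjusted p = 0.346 by edgeR).
The rest of the family had larger p-values. *syt5*, *syt9*, *syt16* and *syt14* had log2 fold changes of -0.30, -0.23, -0.27 and -0.23, with adjusted p between 0.437 and 0.623. *syt7*, a slower sensor of high calcium affinity, was at 75.6, 75.6 and 73.3 cpm across the CRISPR pools and 69.8, 76.5 and 76.3 cpm across the control pools, a log2 fold change of 0.01 (SE 0.10). *syt4*, *syt6*, *syt3* and *syt12* ran from -0.07 to 0.03. The Doc2 genes *doc2a* and *doc2b*, sensors that act in spontaneous and asynchronous release, were at -0.18 and -0.15 (adjusted p = 0.781 and 0.84). In all, 11 of the 13 synaptotagmin and Doc2 genes had a negative log2 fold change, beside 48.1% of all tested genes, with a median of -0.18. Of the 13, 2 (15.4%) were lower at an unadjusted p under 0.05. This stands beside 6.14% of all tested genes and 14.2% of those at 100 cpm or more.

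Of the complexins, *cplx1* lay lower, and whether it differed from *cplx2* in its response was not tested. *cplx1* (gene18331) gave 1802, 1924 and 1991 cpm across the CRISPR pools and 2510, 2233 and 2171 cpm across the control pools. No CRISPR library reached the control range, and the log2 fold change was -0.27 (SE 0.08, adjusted p = 0.229 by edgeR). *cplx2* (gene1587) was at 156, 177 and 166 cpm against 177, 155 and 154 cpm, fully overlapping, with a log2 fold change of 0.04 (SE 0.10, adjusted p = 0.911). *cplx4*, a complexin known from the retina in mammals, lay between 0.21 and 2.21 cpm, too close to the filter for a direction.

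At the active zone, *rims2* had the smallest p. Rim proteins tether calcium channels and bind Rab3. *rims2* (gene21939) gave 137, 141 and 149 cpm across the CRISPR pools and 187, 158 and 157 cpm across the control pools. The groups did not overlap, and its log2 fold change was -0.23 (SE 0.10, adjusted p = 0.376 by edgeR). *rims1* was at -0.18 (adjusted p = 0.627) and *rims3* at 0.26 (adjusted p = 0.845). *rims4*, a short family member, was at -0.36 (SE 0.20, adjusted p = 0.471), and -0.07 without control replicate 1, its highest library at 41.9 cpm.
Bassoon and Piccolo are very large scaffold proteins of this zone. *bsn* (gene23809) gave 97.7, 102 and 113 cpm across the CRISPR pools and 112, 99.3 and 90.2 cpm across the control pools, and *pclo* (gene19809) gave 120, 112 and 115 cpm against 139, 106 and 115 cpm. Their log2 fold changes were 0.05 and -0.06 (SEs 0.11 and 0.12, adjusted p = 0.896 and 0.879 by edgeR). *unc13a*, which primes vesicles, was at -0.04 (adjusted p = 0.933), and *unc13c* at -0.12 (adjusted p = 0.737). *erc1* and *erc2*, scaffolds that bind Rim, were at 0.17 and -0.12 (adjusted p = 0.865 and 0.878). Of the 11 genes of this role, 1 (9.09%, beside 6.14% of all tested genes) was lower at an unadjusted p under 0.05. The median was -0.06.

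Rab3 GTPases ride on vesicles and bind Rim. *rab3a* (gene32907), the main neuronal form, gave 1784, 1686 and 1889 cpm across the CRISPR pools and 2087, 1958 and 2088 cpm across the control pools. The groups did not overlap, and the log2 fold change was -0.19 (SE 0.08, adjusted p = 0.335 by edgeR). *rab3d* (gene6199), best known from secretory granules of exocrine glands, was at 35.9, 32.1 and 31.5 cpm against 34.9, 45.2 and 46.0 cpm. Control replicate 1 lay inside the CRISPR range for *rab3d*, whose log2 fold change was -0.34 (SE 0.14, adjusted p = 0.359). *rab3b* and *rab3c* were at -0.04 and -0.01, and the subunits of the Rab3 GTPase-activating protein, *rab3gap1* and *rab3gap2*, at 0.11 and 0.13 (adjusted p between 0.825 and 0.97).

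Among proteins of the vesicle membrane, *syp* and *syngr1* stood lowest by p. Synaptophysin (*syp*, gene7696), a membrane protein used widely as a marker of synaptic vesicles, gave 1694, 1524 and 1749 cpm across the CRISPR pools and 1971, 1922 and 1897 cpm across the control pools. The groups did not overlap, and the log2 fold change was -0.22 (SE 0.08, adjusted p = 0.292 by edgeR). Its relative *syngr1* (gene615) was at 169, 205 and 159 cpm against 199, 237 and 214 cpm, where CRISPR replicate 2 lay above control replicate 1. Its log2 fold change was -0.29 (SE 0.12, adjusted p = 0.351).
*synpr* and *sv2b* also separated the groups, with log2 fold changes of -0.16 and -0.21 (adjusted p = 0.456 and 0.451). *sv2a*, the vesicle glycoprotein bound by the drug levetiracetam, was at -0.08 (SE 0.18, adjusted p = 0.892). Synapsins tether vesicles to one another in the resting pool. *syn2* gave 40.1, 48.1 and 37.3 cpm across the CRISPR pools and 34.7, 48.7 and 42.2 cpm across the control pools, a log2 fold change of -0.00054 (SE 0.16), and *syn3* was at -0.17 (adjusted p = 0.646). *syn1* lay between 0.877 and 1.69 cpm.

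The other SNAREs, which serve the Golgi, endosomes and lysosomes or the plasma membrane of many cell types, numbered 17, and their log2 fold changes had a median of -0.01. Of these 9 were negative and 8 positive, and 1 (5.88%, beside 6.14% of all tested genes) was lower at an unadjusted p under 0.05. This was *stx12* (gene1547), an endosomal syntaxin, at 230, 223 and 207 cpm across the CRISPR pools and 270, 240 and 257 cpm across the control pools (log2 fold change -0.22, SE 0.09, adjusted p = 0.353 by edgeR). *vamp4*, a SNARE between endosomes and the trans-Golgi network, also separated the groups, at -0.20 (adjusted p = 0.399). *stx16*, of the same route, was at 7.85, 6.42 and 6.77 cpm against 4.11, 5.82 and 5.82 cpm, a log2 fold change of 0.43 (SE 0.23, adjusted p = 0.449). *stx5*, *vamp7*, *stx18*, *snap29*, *snap23* and *stx8* ran from -0.07 to 0.09. The member of largest change here was *stx19*, at -0.47 (SE 0.34, adjusted p = 0.594) on levels from 1.82 to 3.92 cpm.
Of the 10 genes numbered *rab30* to *rab39b*, several of which act in Golgi, endosome or lysosome traffic, 3 were negative and 7 positive, the median was 0.06, and 0 were lower or higher at an unadjusted p under 0.05. The widest was *rab34* at -0.65 (SE 0.61, adjusted p = 0.693), from 0.329 to 4.13 cpm. *rab35l* was at 0.19 (adjusted p = 0.592). Reads of *rab35* and *rab35l* may be shared, and whether they are was not tested. *snap91*, the clathrin adaptor of vesicle retrieval, was at -0.19 (SE 0.11, adjusted p = 0.507).

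The members lower at an unadjusted p under 0.05 were nearly all of high read level. Of the 29 members with a mean of 100 cpm or more, a limit chosen after the values were seen, 24 had a negative log2 fold change, with a median of -0.20. Of these 29, 15 were lower at an unadjusted p under 0.05, and 16 separated the groups with CRISPR lower. That is 51.7% and 55.2% of them, beside 14.2% and 18.8% of the 2272 tested genes at 100 cpm or more. Genes of this level as a whole thus also leaned lower, with 5.9% of them higher at an unadjusted p under 0.05 and a median log2 fold change of -0.05. Of the 61 members under 100 cpm, 1 (1.64%) was lower at an unadjusted p under 0.05, and their median was -0.01. Of the 12804 tested genes under 100 cpm, 4.71% were lower at that p, with a median of 0.02. Among these 61 members 34 had a negative and 27 a positive log2 fold change. Some had wide standard errors, such as *syt5* at -0.30 (SE 0.15) and *rims4* at -0.36 (SE 0.20), so their count depends on precision as well as on change. The count of 15 fell to 8 without CRISPR replicate 1, 10 without CRISPR replicate 2 or control replicate 1, and 6 without control replicate 3. Of all tested genes at any level, 5.35%, 6.79%, 6.06% and 3.83% were lower in these fits, in that order. The share among genes at 100 cpm or more was not counted there.

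**Figure D3:**
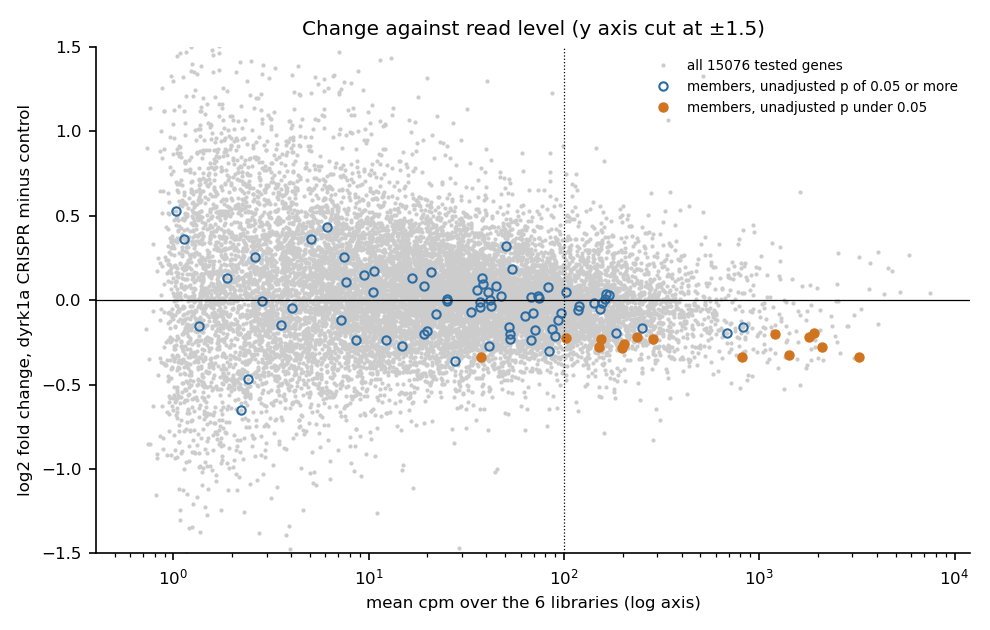
Log2 fold change (y axis, *dyrk1a* CRISPR minus control) against mean cpm over 6 libraries (x axis, log scale) for all 15076 tested genes in grey and 88 of the 90 members as circles, with the dotted line at 100 cpm. The y axis stops at 1.5 in both directions. The 15 filled orange members have an unadjusted p under 0.05, and 14 of them lie right of the dotted line.

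The same counts were made for neighbouring steps of the vesicle cycle. Of 31 tested genes of vesicle endocytosis, 4 (12.9%) were lower and 1 higher at an unadjusted p under 0.05, beside 6.14% of all tested genes lower and 14.2% of those at 100 cpm or more, with a median log2 fold change of -0.08. *dnm1*, the neuronal dynamin that cuts vesicles from the membrane, gave 1214, 1275 and 1087 cpm across the CRISPR pools and 1357, 1610 and 1546 cpm across the control pools (log2 fold change -0.34, adjusted p = 0.196 by edgeR). Among the endophilin genes, *sh3gl3* was at -0.31 and *sh3gl1* at 0.46 (adjusted p = 0.263 and 0.251 by edgeR). The most abundant of them here, *sh3gl2*, with a mean of 182 cpm, was at -0.01 (adjusted p = 0.98). Of 21 genes for transmitter loading and the vesicle proton pump, 4 (19.0%) were lower and 1 higher at that p, with a median of -0.16. Among them were the pump subunit gene *atp6v0a1* and the vesicular amino acid transporter gene *slc6a17*, at -0.31 each (adjusted p = 0.213 and 0.221).
Of 32 genes for presynaptic scaffolds and calcium channels, 4 (12.5%) were lower and 0 higher, among them the neurexin gene *nrxn3* at -0.31 (adjusted p = 0.254 by edgeR). On the other side of the synapse, 5 of 24 (20.8%) postsynaptic scaffold and CaM kinase genes were lower and 1 was higher, with a median of -0.20. The kinase genes *camk2d* and *camk2b* were at -0.29 and -0.31 (adjusted p = 0.179 and 0.184). Over these 4 lists, edgeR and DESeq2 each called 0 genes at an adjusted p under 0.05.

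Markers of several cell types also differed in level between the groups. The 17 tested neuron markers averaged a sum of 7743 ± 409 cpm over the CRISPR pools and 8286 ± 106 cpm over the control pools (± SD, n = 3), 6.55% lower, with no overlap. Of the 17, 13 had a negative log2 fold change, 3 were lower and 1 higher at an unadjusted p under 0.05, and the median was -0.09. Those 3 are 17.6%, beside 6.14% of all tested genes lower and 14.2% of those at 100 cpm or more. *rbfox3*, which encodes the neuronal antigen NeuN, was at -0.29 (adjusted p = 0.243 by edgeR), while the neuronal tubulin gene *tubb3* was at 0.27 (adjusted p = 0.334). The 14 neural progenitor markers summed to between 3943 and 4579 cpm in CRISPR libraries and between 2880 and 3638 cpm in control libraries. All 14 had a positive log2 fold change, 7 of them at an unadjusted p under 0.05, with a median of 0.28. Those 7 are 50%, beside 6.79% of all tested genes higher and 5.9% of those at 100 cpm or more. As the gene lists were chosen with earlier results of these data known, such shares are descriptive only. At an adjusted p under 0.05, DESeq2 called 1 of the 14 higher and 1 of the 17 neuron markers lower. It called 1.15% of all tested genes higher and 0.809% lower.
Endocrine and dense-core granule genes, among them *chgb*, *scg2* and *pomc*, were lower at an unadjusted p under 0.05 in 5 of 11 cases (45.5%). This stands beside 6.14% of all tested genes and 14.2% of those at 100 cpm or more. They summed to 4226 to 4684 cpm in CRISPR libraries and 5390 to 5945 cpm in control libraries. Of 9 myelin genes, 1 was lower and 1 higher at that p (11.1% each), beside 6.14% and 6.79% of all tested genes. They summed to 386 to 407 cpm in CRISPR libraries and 531 to 614 cpm in control libraries. At an adjusted p under 0.05, edgeR and DESeq2 each called 1 of the 9 lower, beside 0.00663% and 0.809% of all tested genes. Of 7 choroid plexus and ependyma genes, 2 were higher at an unadjusted p under 0.05 (28.6%, beside 6.79% of all tested genes). Most of the sum of that list was *rbp4*, which encodes a retinol carrier. Its level was 740.3 ± 186 cpm in CRISPR and 294 ± 64.5 cpm in control libraries (± SD, n = 3). Stress genes summed to 448 to 456 cpm in CRISPR libraries and 485 to 538 cpm in control libraries. Of 10 tested, 3 (30%) were lower and 1 (10%) higher at an unadjusted p under 0.05, beside 6.14% and 6.79% of all tested genes. At an adjusted p under 0.05, DESeq2 called 2 of the 10 stress and 2 of the 11 endocrine genes lower. It called 1 of the 7 choroid plexus and ependyma genes higher, beside 0.809% of all tested genes lower and 1.15% higher. The part of these marker differences in the levels of the release machinery was not tested.

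**Figure D4:**
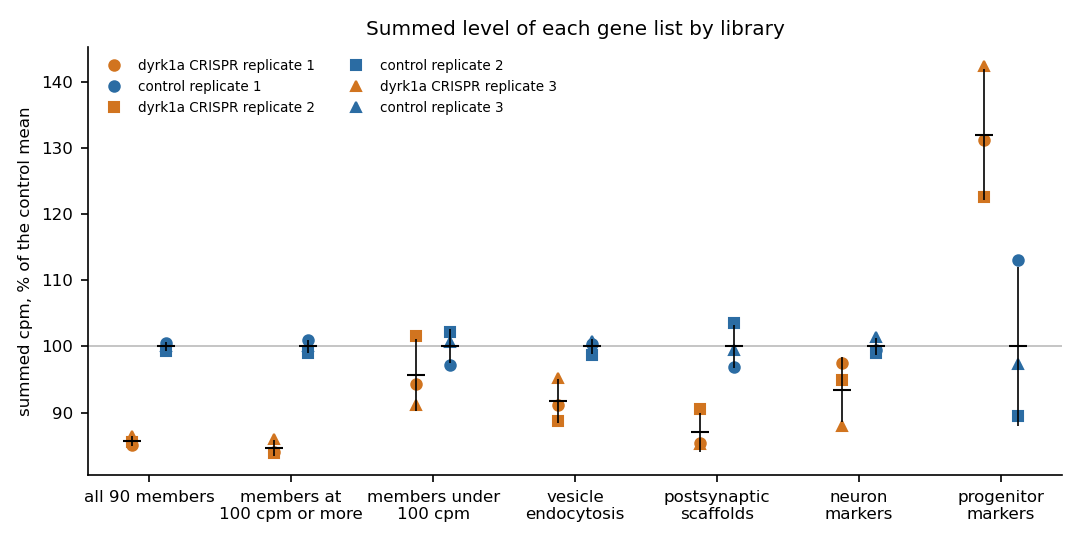
Summed cpm of each gene list in each library, as a percentage of the control mean of that list (y axis). Orange symbols are *dyrk1a* CRISPR and blue symbols control libraries, with the mean and SD of 3 libraries. CRISPR sums of the release machinery, its members at 100 cpm or more, vesicle endocytosis, postsynaptic scaffolds and neuron markers lie below all control libraries. Members under 100 cpm overlap, and progenitor markers lie above.

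Some members varied mainly between libraries of both groups. *stx6* (gene4222), a syntaxin of the trans-Golgi network and endosomes, gave 72.6, 77.2 and 18.4 cpm across the CRISPR pools and 23.3, 56.2 and 56.2 cpm across the control pools. It was low in CRISPR replicate 3 and control replicate 1, and its log2 fold change between the groups was 0.32 (SE 0.47, adjusted p = 0.814 by edgeR). All 10 exon bins of *stx6* were lower in these libraries than in the other 4. Bin 5 was at 9.87, 8.94 and 1.17 counts per 1000000 gene counts (TMM-scaled) in CRISPR libraries and at 1.63, 6.02 and 5.07 in control libraries, while bin 10 was at 56.4, 63.0 and 16.6 against 20.6, 46.7 and 46.6.
In 21 of the 90 members these libraries both lay above or both below the other 4, which is 23.3%, beside 24.6% of all tested genes, a share near the background. The cause of the pattern was not tested, and the labels give no batch.

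**Figure D5:**
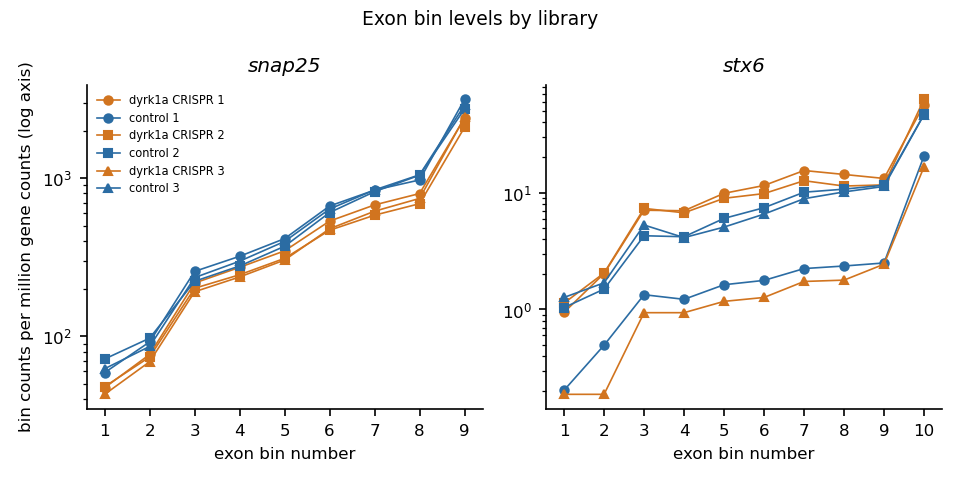
Exon bin counts per 1000000 TMM-scaled gene counts (y axis, log scale) along the bins of *snap25* and *stx6* (x axis, bins with at least 30 counts), with 1 line per library, orange for *dyrk1a* CRISPR and blue for control. In *snap25* the CRISPR lines lie below the control lines at all 9 bins, whereas in *stx6* CRISPR replicate 3 and control replicate 1 lie below the other 4 libraries. Bins share the level of their gene and are not independent.

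Exon usage of the members gave no call. Exon bins were compared as the share of each bin in its gene, by the exon test of edgeR (diffSpliceDGE) on 214537 bins, of which 1160 belong to members. It called 0 of these 1160 bins at an adjusted p under 0.05, where 0.0% of all bins were called, and 5 had an unadjusted p under 0.05, beside 1.07% of all bins. That share of all bins is smaller than evenly spread p-values would give, so the lack of calls does not show unchanged exon usage. With another method, DEXSeq, the paper reports sites of differential exon usage in these libraries. The smallest p values were 0.0145 and 0.0314, for bins 2 and 1 of *napb*, which took 0.332% ± 0.0842 and 0.281% ± 0.0817 of the *napb* bin counts in CRISPR brains and 0.212% ± 0.0718 and 0.186% ± 0.0642 in control brains (SD, n = 3 each). The next 2 bins, bin 1 of *nsf* and bin 1 of *rab3d*, held at most 10 counts in any library. Of the 90 members 4, *stxbp5l*, *rab34*, *doc2a* and *rab3b*, lie in exon models merged with an overlapping gene, so their bins may carry reads of that gene.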

How the data were processed

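RNA was measured in 3 *dyrk1a* CRISPR and 3 control libraries, grouped by sample title. The authors used STAR (2.7.3) on the 9.1 XenBase genome and deposited raw counts per gene (34229 gene models) and per exon bin (267746 bins, plus 5 special counters that name no gene, left out here). Reads in no exon were 5.02% to 5.62% and ambiguous reads 0.463% to 0.526% of exon-level counts. They also deposited log2 values, which equal log2(cpm + 1) of the counts within 1e-08. Libraries were unstranded, so reads of antisense partners cannot be told apart. No sequence reference was used here.

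Gene counts were tested by the quasi-likelihood method of edgeR 4.0.16 in R 4.3.3, with TMM factors and no covariate. Benjamini-Hochberg adjustment ran over all 15076 genes that exceeded 1 cpm in 3 or more libraries. Standard errors are the log2 fold change over the square root of F. The common biological coefficient of variation was 17.6%. Exon usage was tested with diffSpliceDGE on gene models with at least 5 counts. Both scripts were tested on simulated data. A two-sided exact permutation test of 3 against 3 libraries cannot go below p = 0.1. Between replicates of a group, chi-square over its degrees of freedom was 7.16 or more, so none was a repeat deposit. Alternatives were DESeq2 1.42.0, limma-voom and limma on the deposited log2 values (limma 3.58.1), other factors and filters, a replicate block, and leaving out libraries.

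The members and gene lists were chosen with earlier results of these data known. Members named are the core genes of each role, the 12 with the smallest edgeR p and the largest change of each role, with up to 3 genes of smallest p of each other list, the exon bins of smallest p, and further members named to complete their role, chosen after their values were seen. Of the genes this rule takes, some are not reported here, and 2 members are counted in totals but neither named nor drawn. The list of 5 tested erythrocyte genes held 0 genes, and that of 4 microglial genes 2 higher, at an unadjusted p under 0.05. Over all tested genes 6.14% were lower and 6.79% higher at that p.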

Additional observations from a re-analysis of the deposited data

How the results depend on the processing

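Of the 31 members named by rule and reported here, 19 had a negative log2 fold change in all 22 fits. DESeq2 called 1 member lower, *syt1*, without CRISPR replicate 2 (adjusted p = 0.0282) and 1, *nsf*, without control replicate 1 (adjusted p = 0.0301), and 0 in every other fit. Over all fits the adjusted p ran from 0.0282 to 0.544 for *syt1* and from 0.0301 to 0.516 for *nsf*. With limma on the deposited log2 values 9 members were lower at an unadjusted p and the median was -0.039, where all genes split 4.76% lower and 8.62% higher and had a median of 0.03. Leaving out 1 library at a time, by edgeR or DESeq2, gave 6 to 16 members lower, 0 to 2 higher and medians of -0.142 to -0.0561. Over all tested genes these fits put 3.57% to 6.79% lower and 4.66% to 9.12% higher. Without both CRISPR replicate 3 and control replicate 1, 16 were lower and 3 higher, beside 5.86% and 8.04% of all tested genes.

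Of these 31 members, the sign turned in 11 under at least 1 setting, none of them called in any fit. With libraries left out, log2 fold changes ran from -0.064 to 0.59 for *erc1*, -0.36 to 0.89 for *cplx4*, -0.35 to 0.061 for *erc2*, -0.14 to 0.070 for *pclo*, -0.20 to 0.086 for *sv2a*, -0.023 to 0.14 for *bsn*, -0.40 to 0.055 for *syn1*, -0.014 to 0.11 for *cplx2*, -0.15 to 0.070 for *unc13a*, -0.19 to 0.22 for *syngr3* and -0.13 to 0.13 for *syn2*. *cplx4* was at -0.15 by limma-voom and -0.0048 with the replicate block. *syn2* was at 6.04e-05 by DESeq2, 0.024 by limma-voom, 0.0043 with upper-quartile factors or no filter, 0.00050 with filterByExpr, 0.030 on the deposited values and 0.0066 with the replicate block. The causes were not tested.

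The labels number replicates alike in both groups and name no pairs. Deviations of same-numbered libraries from their group means had r = -0.11, 0.186 and -0.0393. Deviations from a mean of 3 libraries constrain one another, so these values cannot decide whether the numbers mark pairs. A replicate block gave 15 members lower at an unadjusted p, beside 6.26% of all tested genes, a median of -0.07 and 0 calls. Exon bins gave 0 member calls in each fit. The 10 members with a mean under 5 cpm rest on 12 to 45 counts in control replicate 3, the shallowest library. The limit of 100 cpm, the DESeq2 fits with a library left out and the removal of both libraries were chosen after seeing the data.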
